A study of Mus musculus with 14 samples.

Results

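Mouse liver collagens were followed through 13 bulk RNA-seq libraries of stellate cells and whole liver and through 1 library of single liver cells. Members were all genes whose symbol has the form of a collagen chain (Col, a type number, a and a chain number), which gave 44 of 35171 gene rows. They were grouped as 11 fibrillar, 8 basement membrane (Col15a1 and Col18a1 included), 10 network, 9 FACIT (fibril-associated collagens with interrupted triple helices) and 4 membrane chains. Col26a1 and Col28a1 stood in none of these. All 44 symbols were found in the GRCm38 gene annotation, and none shared over 10% of its exon bases with another gene model.

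The study asks whether the receptor P2Y14 links dying hepatocytes to the activation of hepatic stellate cells, pericytes of the liver sinusoid that store vitamin A. Quiescent stellate cells (4 libraries) were taken unplated from uninjured livers of C57BL/6J mice labelled LratCre+, TdTom+, after digestion, a gradient, and sorting for vitamin A and for TdTom, the reporter that Lrat-driven Cre switches on. Whole uninjured liver (3 libraries) carries the same strain and allele labels. Cultured stellate cells (3 control and 3 treated libraries) are labelled Balbc, with no sort in their protocol. They stood for 5 h in 10% serum to attach, and then 24 h in 0.1% serum on plastic, without or with 10 µM UDP-glucose, a ligand of P2Y14 (titles of the treated samples say UDP). The single cells were from the digested normal liver of C57BL/6 mice. No library comes from an injured liver. Whether the libraries of a group are from different animals or cultures is not in the labels, so the p-values cover the spread between these samples alone, and that spread may be technical.

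Bulk levels are TPM, transcript abundances scaled for transcript length and to a common total, so chains can be compared within a library; read depth cannot be seen from them. All 15 stellate markers reached 1 TPM in the quiescent cells and in both cultures, and their sum was 68114 to 76504 TPM in quiescent cells, 102 to 211 TPM in liver, 11981 to 12503 TPM in control cultures and 9851 to 11256 TPM with UDP-glucose. The quiescent cells also held Kupffer cell markers (14 of 14 at 1 TPM, sum 4580.5 to 5579.6 TPM) and sinusoidal endothelial markers (15 of 15, 502 to 1254 TPM). In control cultures these sums were 409.9 to 433 TPM (3 of 14) and 96.6 to 112 TPM (3 of 15), with Clec4f, Vsig4 and Stab2 at 0 in all 3 libraries. Vein and artery endothelial markers summed to 7369 to 8028 TPM in quiescent cells (6 of 12 at 1 TPM) and 1545 to 1638 TPM in control cultures (4 of 12). Plvap of that list was also among the leading genes of the stellate-like cells in the single-cell library. Quiescent cells, liver and cultures were deposited in separate tables, so table and group cannot be told apart, and between quiescent and cultured cells strain, sort and culture change together. In bulk RNA, fewer cells of a type and less RNA per cell cannot be told apart.

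A collagen molecule is a triple helix of chains, which may be alike or different. Fibrillar collagens (types I, III and V among them) build the ropes of scar tissue, FACIT collagens decorate the surface of those fibrils, type IV forms the sheet of basement membranes, and type VI forms beaded networks around cells. In the liver, stellate cells are known as the main source of scar collagen. The chains need prolyl and lysyl hydroxylases, the chaperone HSP47, proteases that trim the propeptides, and cross-linking oxidases of the lysyl oxidase family.

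Collagen transcripts took 0.901% ± 0.0530 of TPM in quiescent stellate cells (SD, n = 4). The share was 0.0192% ± 0.00321 in liver, 0.352% ± 0.0371 in control cultures and 0.390% ± 0.0224 with UDP-glucose (SD, n = 3 each). The makeup differed too. In quiescent cells FACIT chains led with 36.0% ± 2.41 of collagen TPM, followed by fibrillar chains with 30.5% ± 2.50, basement membrane chains with 21.9% ± 0.166 and network chains with 11.4% ± 1.75. In control cultures basement membrane chains led with 51.0% ± 0.256, above fibrillar chains with 28.6% ± 0.496 and FACIT chains with 14.6% ± 0.396. In liver, basement membrane chains held 72.0% ± 2.23. The most abundant chain was Col14a1 in all 4 quiescent libraries, Col18a1 in all 3 liver libraries and Col4a1 in all 6 cultures.

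**Figure D1:**
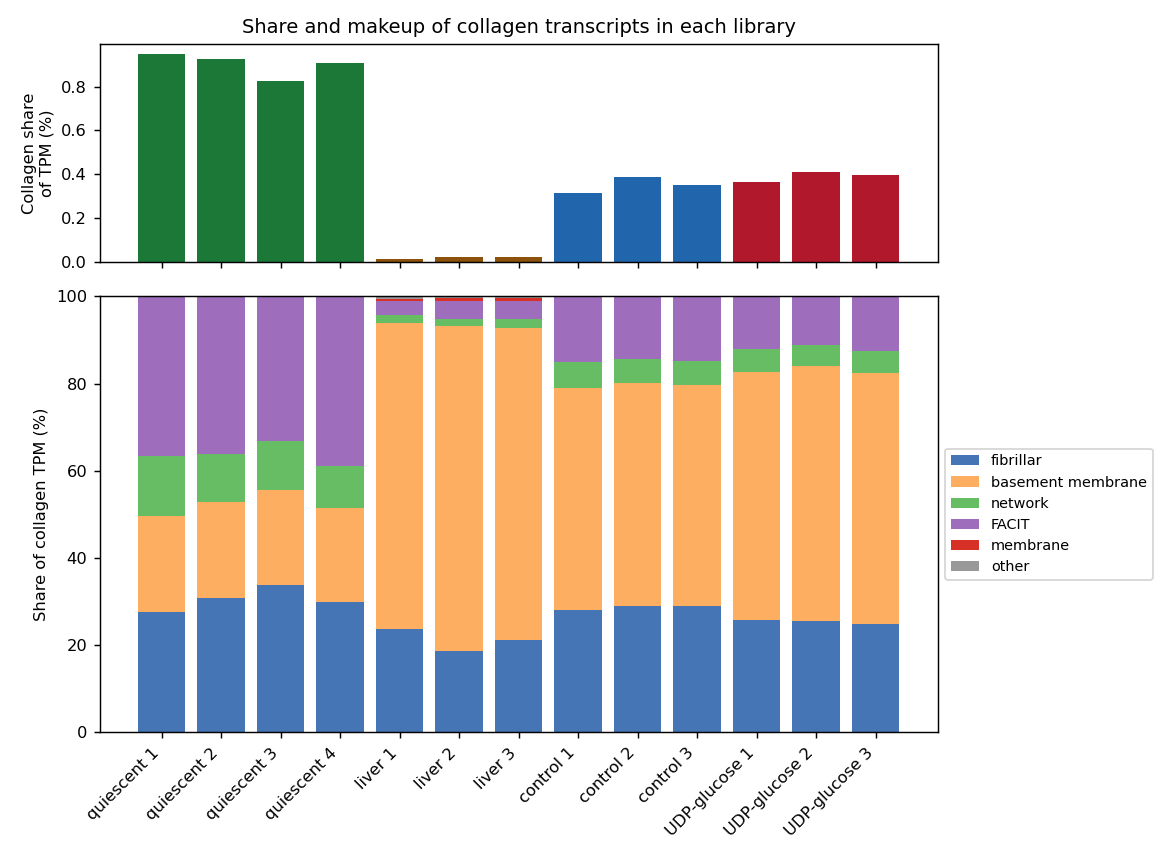
Upper bars give the share of all TPM held by the 44 collagen chains (%) in each of the 13 libraries, and lower bars split that share among collagen classes (% of collagen TPM). FACIT chains take 32.9% to 38.8% in the quiescent libraries, and basement membrane chains take 50.8% to 51.3% in control cultures, 56.97% to 58.6% with UDP-glucose and 70.2% to 74.5% in liver.

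Of the 44 chains, 16 averaged at least 10 TPM in 1 or more bulk groups, 12 lay between 1 and 10 TPM at their highest, and 16 stayed below 1 TPM in every group. At least 1 TPM was reached by 22 chains in quiescent cells, 11 in liver, and 23 in each culture.

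Quiescent cells were compared with liver to see which collagens are concentrated in stellate cells. Tests used limma on log2(TPM + 1), two-sided, over genes that averaged 1 TPM or more across the compared libraries. A gene was called at an adjusted p under 0.05 with a log2 difference of 1 or more in either direction. Of the 44 chains 20 could be tested: 16 were called higher in quiescent cells, 1 lower and 3 neither. Calls were common here, since 67.0% of the 12643 genes tested were called higher and 10.9% lower, with a median log2 fold change of 1.62 over all genes. The median of the 20 chains was 6.44, and the 24 others did not pass the filter on low values. After median-of-ratios rescaling, which put the all-gene median at −0.032, 14 chains were called higher and 3 lower. Of the 12643 genes tested, 3250 were then called higher and 3465 lower. The share of called genes that were higher thus moved from 86.0% to 48.4%. Quantile normalisation put it at 54.7% (3547 genes higher and 2943 lower) and also gave 14 and 3 chains.

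Among the FACIT chains, Col14a1, which binds along collagen fibrils, was the most abundant collagen of the quiescent cells. Its quiescent values were 3282, 3157, 2566 and 3319 TPM, against 2.68, 6.36 and 5.52 TPM in liver (log2 9.09, SE 0.22, limma adjusted p = 1.66e-11). Col16a1, a FACIT chain found near cell surfaces, held 149.7, 154, 134 and 175 TPM against 0.619, 1.08 and 1.48 TPM (log2 6.24). The groups did not overlap for either chain, and quiescent library 3 was the lowest for both. Groups were apart for 19 of the 20 chains tested against liver. The share over all genes is not given here, so a lack of overlap in this comparison is a description only.

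Of the fibrillar chains, Col3a1, the chain of type III collagen, was highest, with 1504, 1624, 1619 and 1431 TPM against 2.55, 4.34 and 3.42 TPM in liver (log2 8.46, SE 0.15, limma adjusted p = 2.78e-12). Col1a2, a chain of type I collagen, was at 559, 577, 526 and 625 TPM in quiescent cells and 1.07, 1.47 and 1.39 TPM in liver (log2 7.96). Its partner Col1a1 lay lower, at 117, 186, 202 and 195 TPM, with liver at 0.646, 0.666 and 0.852 TPM (log2 6.64). Type I collagen is usually built with more Col1a1 than Col1a2 chains, whereas Col1a2 was the more abundant transcript in all 4 quiescent libraries. Of the type V chains, which start fibrils, Col5a1 held 321, 334, 322 and 309 TPM against 0.468 to 0.894 TPM in liver (log2 7.54), and Col5a2 held 68.0, 75.5, 68.6 and 88.3 TPM against 0.266 to 0.343 TPM (log2 5.86). Col24a1, a minor fibrillar chain, was at 13.2, 12.7, 9.54 and 15.5 TPM against at most 0.103 TPM (log2 3.67). All 6 of these chains were called, with liver at or below 4.34 TPM throughout.

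Of the 6 type VI chains, which are network chains, 3 could be tested against liver, and these were called higher: Col6a1 averaged 528 ± 113 TPM against 1.19 ± 0.418 (log2 7.91), Col6a2 279.6 ± 62.3 against 0.734 ± 0.297 (log2 7.33), and Col6a3 214 ± 19.03 against 0.918 ± 0.405 (log2 6.82). The others, Col6a4, Col6a5 and Col6a6, did not pass the filter on low values. Quiescent library 1 was the highest for each of the 3. By library, Col6a1 was at 689, 508, 488 and 426 TPM, Col6a2 at 372, 263, 245 and 238 TPM and Col6a3 at 232, 228, 202 and 193 TPM, while Col1a1 was lowest in that same library. Col8a1, a short network chain of vessel walls, was at 2.28 ± 0.156 against 0.0510 ± 0.0360 TPM (log2 1.64). Of the membrane chains, Col13a1 and Col25a1 were called higher as well (log2 2.23 and 1.70), but neither call was kept after median-of-ratios rescaling (0.87 and 0.91) or quantile normalisation (0.69 and 0.83).

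The abundant type IV chains of basement membrane, Col4a1 and Col4a2, were called higher too. Col4a1 was at 1456, 1444, 1325 and 1416 TPM in quiescent cells and 3.96, 4.58 and 3.16 TPM in liver (log2 8.18, SE 0.13, limma adjusted p = 2.04e-12). Col4a2 was at 611, 581, 457 and 536 TPM and 2.08, 2.13 and 1.89 TPM (log2 7.49). Col4a1 was the more abundant of the pair in all 13 libraries, and its quiescent values varied by 59.2 TPM (SD).

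Col18a1, the basement membrane chain from which endostatin is cut, was the 1 chain called lower. It was at 2.62, 4.79, 5.34 and 6.36 TPM in quiescent cells, and liver held 100.4, 151 and 140.0 TPM, with no overlap (log2 −4.53, SE 0.23, limma adjusted p = 6.68e-09). Col5a3, the remaining type V chain, was at 8.79, 10.7, 8.19 and 11.5 TPM in quiescent cells and at 16.8, 18.6 and 19.1 TPM in liver. Its groups did not overlap either, but its log2 fold change of −0.84 was short of the minimum; it was called lower after median-of-ratios rescaling (−2.71) and quantile normalisation (−2.43). Col27a1, a fibrillar chain best known from cartilage, held 20.3, 20.1, 15.7 and 18.2 TPM in quiescent cells and 14.7, 13.2 and 17.0 TPM in liver, with overlapping groups (log2 0.29, SE 0.13, limma adjusted p = 0.0567). It too was called lower under these scalings (−1.62 and −1.34). Col26a1 averaged 2.50 ± 0.532 against 0.874 ± 0.0295 TPM and was not called (log2 0.89, and −0.32 and −0.51 under the same scalings).

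**Figure D2:**
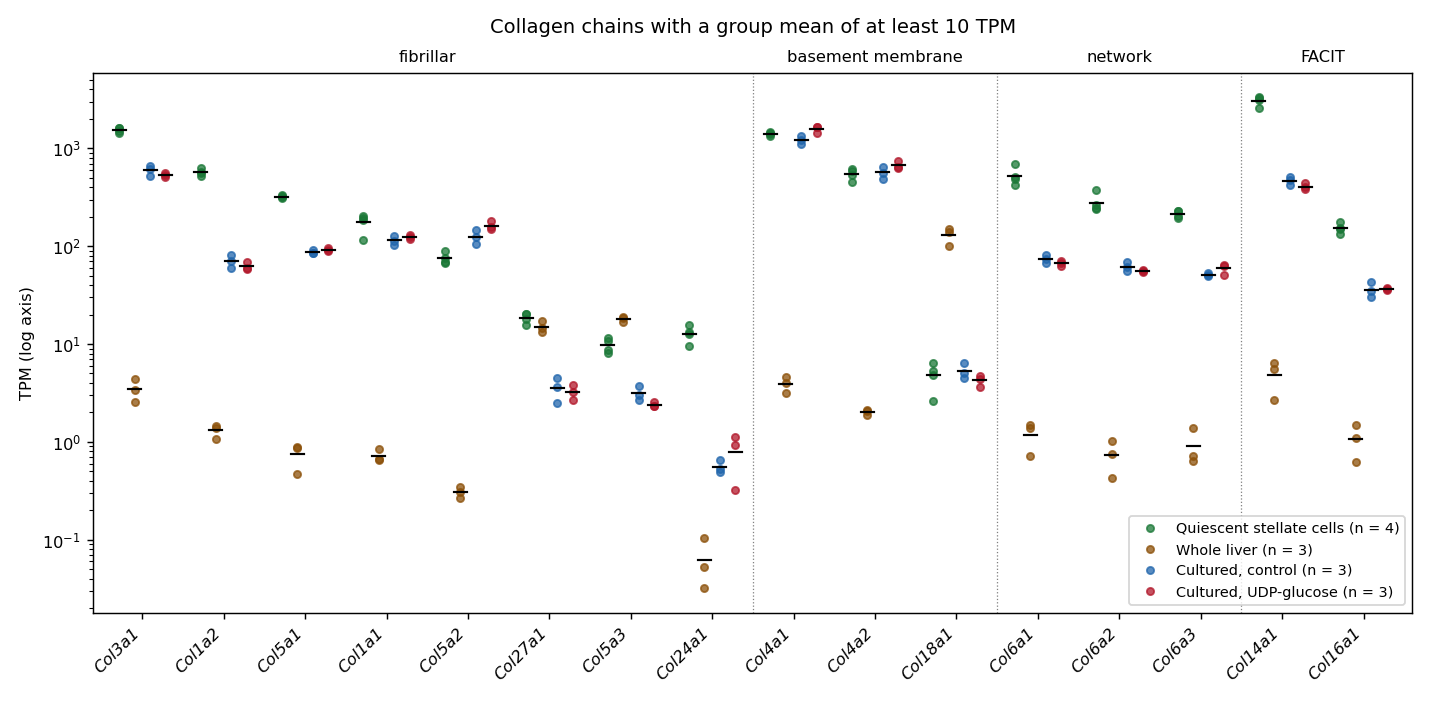
TPM (log axis) of the 16 chains that averaged at least 10 TPM in a group, 1 point per library, with a bar at each group mean. Quiescent libraries lie above the liver libraries for every chain shown but Col18a1, Col5a3 and Col27a1, and the cultures lie near the quiescent cells for Col4a1 and Col4a2.

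The single-cell library showed which liver cells held these transcripts. Of 5063 barcodes 4804 were kept; the median over all barcodes was 1983 UMIs (unique molecular identifiers, each standing for a counted transcript). Cells were clustered without the collagen genes, so collagen levels did not form the clusters. With a single library no difference was tested, and intervals cover counting error only. Stellate-like cells (342 cells, median 3153.5 UMIs) gave 0.360% of their UMIs to collagens (95% exact interval 0.349% to 0.371%) and held 41.4% of all collagen UMIs. Sinusoidal endothelial-like cells (1377 cells, median 1739 UMIs) gave 0.0820% and held 20.7%. B cell-like cells gave 0.00899% and hepatocyte-like cells 0.0303%. An unnamed cluster of 47 cells, whose cells held a median of 12 of 14 Kupffer and 11 of 15 stellate markers, gave 0.277% and had 1474 CPM of Col14a1. Stellate-like cells had a median of 5 different chains detected per cell.

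In stellate-like cells Col14a1 led with 1288 CPM (the class's summed UMIs scaled to a common total; 95% exact Poisson interval 1224 to 1356). It was followed by Col3a1 with 548 CPM (506 to 593), Col4a1 with 394 (358 to 432), Col1a2 with 351 (317 to 387), Col4a2 with 228 (201 to 257) and Col6a1 with 177 (154 to 203). Bulk quiescent cells had the same order of Col14a1, Col3a1 and Col4a1. Col14a1 was seen in 319 of 342 stellate-like cells (93.3%), against 6 of 239 B cell-like cells (2.51%, median 1439 UMIs), which stand here for background RNA. With every cell thinned to 1000 UMIs these shares were 68.5% and 1.27%. Col3a1 was seen in 252 of 342 stellate-like cells (73.7%) and 3 of 239 B cell-like cells (1.26%). Other blood cell classes gave from 0.00446% (plasma cell-like) to 0.0306% (plasmacytoid dendritic-like) of their UMIs to collagens, with T cell-like cells at 0.0264%. The B cell-like values are therefore only 1 measure of background. Col1a1 had 102 CPM (84.5 to 122), below Col1a2, as in bulk quiescent cells. A UMI of both was seen in 54 cells, of 74 with Col1a1 and 211 with Col1a2.

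The type IV chains were also found in the endothelium. Col4a1 was at 316 CPM (295 to 339) and Col4a2 at 211 CPM (194 to 229.9) in sinusoidal endothelial-like cells. Stellate-like cells held 19.1% and 18.1% of the UMIs of these chains, against 75.4% for Col14a1 and 84.9% for Col3a1. T cell-like cells had 94.6 CPM of Col4a1 and B cell-like cells 30.8 CPM. Col13a1, a transmembrane collagen of cell adhesion sites, was lower in stellate-like cells (60.2 CPM, 46.9 to 76.2) than in sinusoidal endothelial-like cells (198 CPM, 181 to 216). It was highest in an unnamed cluster of 678 cells led by Fabp4, Plpp1 and Ltc4s (252 CPM, 226 to 280.4), whose cells held a median of 12 of 15 sinusoidal endothelial markers. That cluster held 12.8% of collagen UMIs, and another unnamed cluster of 315 cells, with a median of 11 of these markers, held 6.35%. Of the rarer type IV chain Col4a4, 39 of 63 UMIs fell in sinusoidal endothelial-like cells and 1 in stellate-like cells. Col18a1 was concentrated in hepatocyte-like cells (491 cells, median 1861 UMIs), with 298 of its 348 UMIs and 207 CPM (184 to 232), against 3.49 CPM (0.951 to 8.94) in stellate-like cells.

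**Figure D3:**
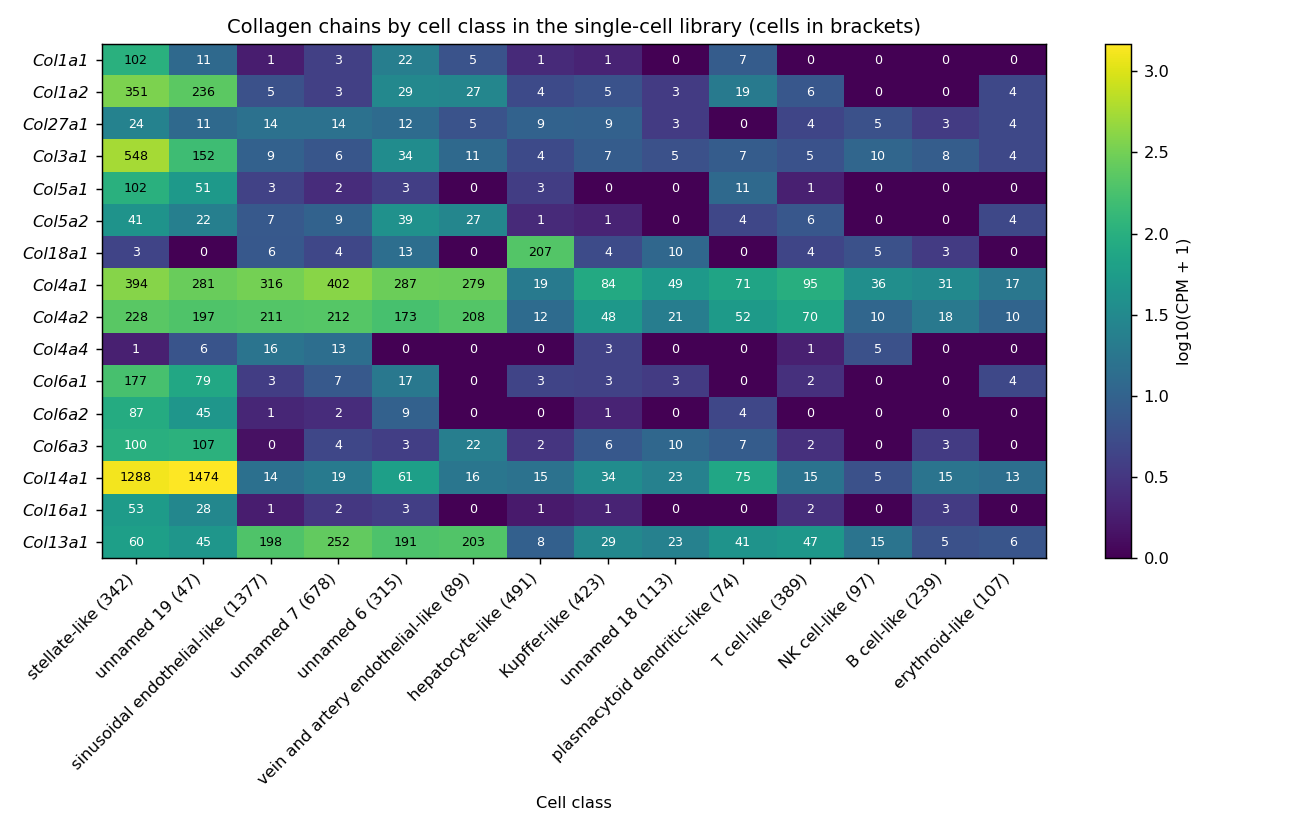
Colour is log10(CPM + 1) of summed UMIs for each chain with at least 50 UMIs (rows) in the cell classes of the single-cell library (columns). Plasma cell-like and cholangiocyte-like cells are not shown. Fibrillar, type VI and FACIT chains are highest in stellate-like cells or in the 47-cell unnamed cluster, except Col27a1. That chain was highest in the 7 cholangiocyte-like cells left out of the figure, which held 18 collagen UMIs over all chains. Col4a1, Col4a2 and Col13a1 are also high in endothelial classes, and Col18a1 is highest in hepatocyte-like cells.

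In bulk quiescent cells Col13a1 varied more between libraries than the abundant chains did. It was at 7.35, 14.4, 9.09 and 3.53 TPM, and the sinusoidal endothelial markers summed to 622, 1254, 774 and 502 TPM in the same libraries. Both were highest in library 2 and lowest in library 4. The part of endothelial RNA in the call against liver (log2 2.23, SE 0.33, limma adjusted p = 5.90e-05) was not tested.

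The promoter windows of the type IV pair are shown because the genes share their 5′ region. Col4a1 (chromosome 8, 11198423 to 11312826, minus strand, GRCm38) and Col4a2 (11312805 to 11449287, plus strand) lie head to head, and their annotated ends overlap by 22 bases. RefSeq windows of 300 bases (250 before the start and 50 after, GRCm38.p6) were found for 35 of the 44 chains. Beside the pair stand Col1a2 and Col3a1, abundant fibrillar chains that were lower in culture, as described further on. The windows are chr8:11312777-11313076 for Col4a1 (minus strand), chr8:11312555-11312854 for Col4a2 (plus), chr6:4505368-4505667 for Col1a2 (plus) and chr1:45311288-45311587 for Col3a1 (plus). Each is written 5′ to 3′ on the gene's own strand, and capitals mark matches on either strand to CCAAT (the NF-Y box), GGGCGG (the GC box) and TATAAA (the TATA box).
Col4a1: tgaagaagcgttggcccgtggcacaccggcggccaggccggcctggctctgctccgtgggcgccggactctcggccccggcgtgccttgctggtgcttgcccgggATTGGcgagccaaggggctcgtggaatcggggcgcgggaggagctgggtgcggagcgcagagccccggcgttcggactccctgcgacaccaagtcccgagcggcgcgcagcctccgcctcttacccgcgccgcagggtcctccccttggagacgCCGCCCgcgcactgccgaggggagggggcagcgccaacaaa
Col4a2: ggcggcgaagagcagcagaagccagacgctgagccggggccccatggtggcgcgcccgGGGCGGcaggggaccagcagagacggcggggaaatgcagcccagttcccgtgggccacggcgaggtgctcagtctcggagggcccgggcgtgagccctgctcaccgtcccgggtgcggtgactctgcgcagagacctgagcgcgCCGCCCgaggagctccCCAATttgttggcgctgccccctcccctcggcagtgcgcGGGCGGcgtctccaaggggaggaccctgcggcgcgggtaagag
Col1a2: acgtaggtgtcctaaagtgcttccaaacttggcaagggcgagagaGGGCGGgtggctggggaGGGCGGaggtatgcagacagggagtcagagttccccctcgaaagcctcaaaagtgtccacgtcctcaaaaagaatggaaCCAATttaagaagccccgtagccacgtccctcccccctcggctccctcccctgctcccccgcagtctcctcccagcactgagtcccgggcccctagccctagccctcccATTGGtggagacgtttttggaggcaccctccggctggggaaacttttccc
Col3a1: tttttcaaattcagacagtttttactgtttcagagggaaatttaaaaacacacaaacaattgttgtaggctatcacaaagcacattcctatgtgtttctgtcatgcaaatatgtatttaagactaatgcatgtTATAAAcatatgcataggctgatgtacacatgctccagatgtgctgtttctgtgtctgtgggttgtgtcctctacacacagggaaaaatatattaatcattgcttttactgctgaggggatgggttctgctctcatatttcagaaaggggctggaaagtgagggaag

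The Col4a1 and Col4a2 windows were 74.0% and 73.7% G and C (median over all 32851 windows 52.7%). Col4a1 held 1 CCAAT and 1 GGGCGG match, Col4a2 1 and 3, and neither held TATAAA. The windows of this pair overlap on opposite strands, so their contents are not independent. The GGGCGG match of Col4a1 is the same site as 1 of the 3 of Col4a2. Col1a2 (61.0% G and C) held 2 matches each of CCAAT and GGGCGG, and Col3a1 (37.7%) held TATAAA alone. Counted in bases from the start, the Col3a1 match lay at −117 to −112, and 1 of the Col1a2 CCAAT matches lay at 1 to 5, past the start. Of all windows, 37.4% held CCAAT, 35.7% GGGCGG and 13.6% TATAAA, so a match is common and is a description only.

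Control cultures were compared with quiescent cells to see how collagen transcripts stood after 24 h on plastic. Of 25 chains tested, 3 were called higher, 13 lower and 9 neither, while 18.6% of the 12537 genes tested were called higher and 13.2% lower. The median log2 fold change was −1.28 over these chains and 0.26 over all genes. Of the fibrillar chains 6 of 9 tested were lower, of the network chains 3 of 6 (all type VI), of the FACIT chains 2 of 4 and of the membrane chains 2 of 2, while none of the 3 basement membrane chains was called and 1 of them had an unadjusted p under 0.05. The sums of stellate, Kupffer and sinusoidal endothelial markers were lower in culture too (above). The sum of vascular smooth muscle markers went the other way, from 267 to 364 TPM in quiescent cells to 1944 to 1959 TPM in control cultures. Its members did not move alike. Acta2 averaged 12.0 ± 7.10 TPM in quiescent cells and 264 ± 10.1 TPM in control cultures, while Myh11 averaged 10.1 ± 1.83 and 4.64 ± 1.41 TPM. The portal fibroblast sums overlapped (211 to 356 TPM and 273 to 328 TPM). The part of all these markers in the values of the chains was not tested. Of all called genes 58.6% were higher, 42.4% after median-of-ratios rescaling and 48.2% after quantile normalisation, and 13 chains were lower under both. Of the 12537 genes tested, 2061 were lower after median-of-ratios rescaling and 1855 after quantile normalisation.

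Among fibrillar chains, Col1a2 fell furthest of the abundant members, from 572 ± 41.2 to 60.4, 80.9 and 71.4 TPM in the 3 control cultures (log2 −3.00, SE 0.10, limma adjusted p = 3.70e-08). Col3a1 fell to 518, 663 and 613 TPM (log2 −1.37) and Col5a1 to 86.0, 91.4 and 85.2 TPM (log2 −1.87). The minor fibrillar chains fell too: Col24a1 to 0.554 ± 0.0850 TPM (log2 −3.13), Col27a1 to 3.52 ± 0.995 TPM (log2 −2.13) and Col5a3 to 3.16 ± 0.544 TPM (log2 −1.37). None of these 6 had overlapping groups. Groups were apart for 19 of the 25 chains tested. The share of all genes with groups apart is not given here, so a lack of overlap in this comparison is a description only.

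Not all partners followed. Col1a1 was at 103, 128 and 114 TPM in culture, overlapping the quiescent libraries (117 to 202 TPM), and was not called (log2 −0.57, SE 0.18, limma adjusted p = 0.0198), since its fold was short of the minimum. Col5a2 stood higher in culture, at 105, 147 and 124 TPM against at most 88.3 TPM in quiescent cells, without overlap but with a log2 fold change of 0.73, also short of the minimum. With no minimum the counts were 6 higher and 15 lower, with Col5a2 among the former and Col1a1 and Col4a1 among the latter. Of all 12537 genes tested, 5823 were higher and 3101 lower with no minimum.

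Of the type VI chains, Col6a1, Col6a2 and Col6a3 fell. Col6a1 was at 67.0, 81.4 and 73.3 TPM in culture (log2 −2.80, SE 0.15, limma adjusted p = 4.72e-07), Col6a2 at 55.6, 68.7 and 60.9 TPM (log2 −2.14), and Col6a3 at 51.3, 52.7 and 49.3 TPM (log2 −2.04). Of the FACIT chains, Col14a1 fell to 419, 506 and 474 TPM (log2 −2.72, SE 0.11, limma adjusted p = 7.74e-08) and Col16a1 to 42.8, 34.96 and 30.3 TPM (log2 −2.07). The membrane chains Col13a1 (0.0616 ± 0.00765 TPM in culture, log2 −3.04) and Col25a1 (0.572 ± 0.256 against 2.90 ± 0.984 TPM, log2 −1.28) fell as well. Beside Col13a1, the endothelial marker Stab2 went from 16.3 to 56.0 TPM across the quiescent libraries to 0 in all control cultures.

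The type IV pair was near its quiescent level. Col4a1 held 1456, 1444, 1325 and 1416 TPM in quiescent cells and 1102, 1332 and 1219.5 TPM in culture (log2 −0.21, SE 0.08, limma adjusted p = 0.0308), short of the minimum fold. Col4a2 held 611, 581, 457 and 536 TPM, then 491, 650.0 and 561 TPM (log2 0.054, SE 0.12, limma adjusted p = 0.705; log2 −0.23 after median-of-ratios rescaling). Groups overlapped for both. Col18a1 was at 5.30 ± 0.929 TPM in culture against 4.78 ± 1.58 (log2 0.16, −0.074 after that rescaling), also not called.

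The 3 chains called higher in culture were all below 10 TPM. Col12a1, a FACIT chain of tissues under load, was at 3.83, 4.87 and 3.82 TPM against 0.288, 0.816, 1.95 and 0.569 TPM (log2 1.51, SE 0.28, limma adjusted p = 0.000995). Col20a1, another FACIT chain, averaged 5.04 ± 1.31 against 0.765 ± 0.237 TPM (log2 1.76). Col6a5, a further type VI chain, was at 5.34, 3.69 and 2.66 TPM against 0.0118, 0, 0 and 0.0269 TPM (log2 2.24). None of the 3 had overlapping groups, and none was tested when genes averaging under 5 TPM were left out. Col11a2 (2.15 ± 0.649 against 0.591 ± 0.359 TPM, log2 0.99) and Col7a1 (2.94 ± 1.39 against 1.22 ± 0.903 TPM, log2 0.84) were not called. Both passed without quiescent library 3 (log2 1.08 and 1.09), which made 5 higher chains.

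**Figure D4:**
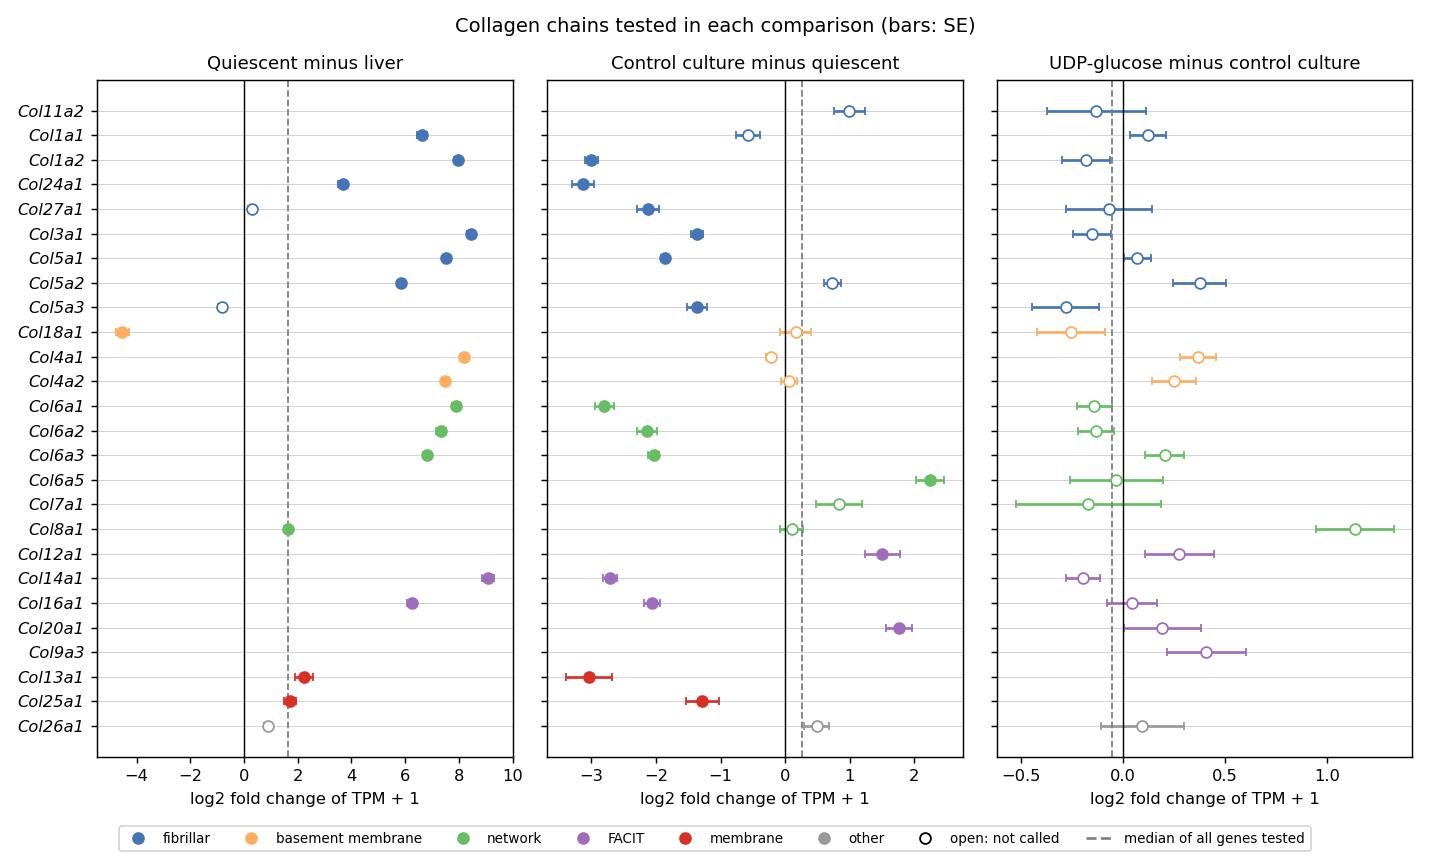
Log2 fold changes of TPM + 1 with SE for the chains tested in each of the 3 comparisons (the x axes differ in scale); filled points were called, and the dashed line is the median of all genes tested. For cultures against quiescent cells 13 filled points lie left of 0 while Col4a1, Col4a2 and Col1a1 are open, and for UDP-glucose all 23 points are open.

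Chains of the same molecule stood in other proportions in culture. The ratio of Col1a1 to Col1a2 TPM was 0.209, 0.322, 0.384 and 0.312 in quiescent libraries and 1.71, 1.59 and 1.59 in control cultures, without overlap. Col5a1 to Col5a2 went the other way, from 4.33 ± 0.573 to 0.709 ± 0.0990, and Col6a1 to Col6a2 went from 1.89 ± 0.0876 to 1.198 ± 0.0112. Col4a1 to Col4a2 went from 2.60 ± 0.226 to 2.16 ± 0.0978, the smallest relative change of the 4 ratios. It did not overlap either, at 2.38 to 2.90 in quiescent libraries and 2.05 to 2.24 in control cultures, nor did the other ratios. Rescaling a library leaves such ratios as they are, but strain, sort and table change with them, and they were not tested.

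**Figure D5:**
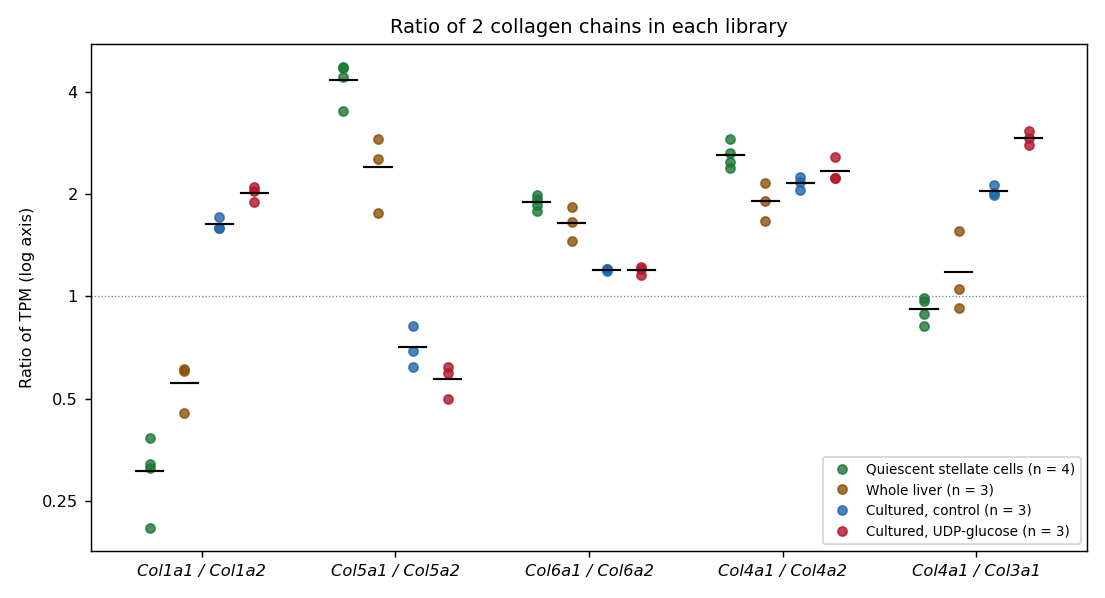
Ratio of the TPM of 2 chains (log axis) in each library, with bars at the group means. For Col1a1 over Col1a2 the quiescent libraries lie between 0.209 and 0.384 and the cultures between 1.59 and 2.09. For Col4a1 over Col4a2 the quiescent libraries lie between 2.38 and 2.90, control cultures between 2.05 and 2.24, and all 13 libraries between 1.67 and 2.90.

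The machinery that makes and matures collagen was followed in 7 lists of 65 genes, 52 of them tested in each comparison. Against liver, 46 were called higher in quiescent cells by limma and 0 lower, with 51 at an unadjusted p under 0.05 (43 higher and 4 lower of the 52 after median-of-ratios rescaling, 43 and 3 after quantile normalisation). Of all 12643 genes tested there 67.0% were higher and 10.9% lower before rescaling. After median-of-ratios rescaling 3250 were higher and 3465 lower, and after quantile normalisation 3547 and 2943. Serpinh1, which encodes the collagen chaperone HSP47, averaged 1185 ± 60.4 against 2.91 ± 0.948 TPM (log2 8.27). Pcolce, an enhancer of C-propeptide removal, averaged 764 ± 48.4 against 3.80 ± 0.906 TPM (log2 7.33), and Loxl2, a cross-linking oxidase, 167 ± 23.4 against 0.374 ± 0.0600 TPM (log2 6.93). Among basement membrane partners, Nid1 (nidogen) averaged 540.0 ± 81.2 against 0.993 ± 0.4998 TPM and Lamb1 (a laminin chain) 539 ± 74.3 against 1.04 ± 0.198 TPM. Among receptors, Ddr2, a kinase that binds fibrillar collagen, averaged 191 ± 45.8 against 0.547 ± 0.534 TPM. Among proteases that cleave collagen, Mmp2 averaged 221 ± 12.7 against 0.603 ± 0.148 TPM (log2 7.12). Ppib, Mia3 and Bmp1 were called higher (log2 1.05, 1.36 and 1.37) but were at −0.97, −0.64 and −0.61 after median-of-ratios rescaling. Ppib shares 24.96% of its exon bases with another gene model.

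In control cultures against quiescent cells, 2 of the 52 were higher and 19 lower (1 and 23 after median-of-ratios rescaling, 1 and 22 after quantile normalisation). Of all 12537 genes tested there 18.6% were higher and 13.2% lower before rescaling. After median-of-ratios rescaling 1514 were higher and 2061 lower, and after quantile normalisation 1729 and 1855. Propeptide removal had 5 of 5 tested genes lower, cross-linking 4 of 6 and the basement membrane partners 7 of 12. Hydroxylation and glycosylation had 1 of 13 lower, and folding and export 0 of 7, where limma gave 4 genes an unadjusted p under 0.05. Pcolce fell to 192 ± 3.08 TPM (log2 −1.99), Loxl1, a cross-linking oxidase, from 61.6 ± 6.59 to 5.10 ± 0.840 TPM (log2 −3.36), and Pxdn, the peroxidase that cross-links type IV collagen, from 261 ± 16.0 to 46.2 ± 6.05 TPM (log2 −2.48). Of the procollagen proteases, Adamts2 fell from 139 ± 10.5 to 59.6 ± 5.29 TPM (log2 −1.21) and Adamts14 from 49.0 ± 7.54 to 7.05 ± 1.199 TPM (log2 −2.63). Of the receptors, the integrin chain Itga1 fell from 211 ± 36.0 to 70.7 ± 19.2 TPM (log2 −1.58) and Mrc2, which takes up collagen, from 55.3 ± 8.63 to 10.5 ± 2.03 TPM (log2 −2.30). The laminin chain Lama1 fell from 190.4 ± 30.2 to 11.6 ± 2.54 TPM (log2 −3.93), Lamb1 to 133 ± 23.9 TPM (log2 −2.01) and Nid1 to 248.8 ± 14.99 TPM (log2 −1.10), whereas Col4a1 and Col4a2 were not called. The genes called higher were Ctsk, a collagen-cleaving lysosomal protease, at 218 ± 11.5 against 40.1 ± 2.01 TPM (log2 2.41, limma adjusted p = 1.48e-08), and Ddr1, a collagen receptor, at 57.7 ± 3.95 against 26.7 ± 3.59 TPM (log2 1.09, not called after either rescaling).

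UDP-glucose cultures were compared with control cultures to see whether the ligand altered collagen transcripts within 24 h. Here a gene was called at an adjusted p under 0.05 with no minimum fold, which gave 0.428% of 12161 genes higher and 0.181% lower. Limma called 0 of the 23 chains tested, and 3 had an unadjusted p under 0.05. The median log2 fold change was 0.05 over these chains and −0.05 over all genes. The control cultures also serve in the preceding comparison, and the quiescent cells in both comparisons before this one, so the results are not independent.

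Col8a1 came nearest. The control libraries were at 1.83, 3.46 and 2.43 TPM and the UDP-glucose libraries at 6.49, 6.87 and 6.80 TPM, without overlap (log2 1.14, SE 0.19, limma adjusted p = 0.0556). Over the alternatives tried its adjusted p ran from 0.00792 to 0.267: it was 0.0286 after median-of-ratios rescaling, 0.0154 after quantile normalisation, 0.00792 in a fit over all 4 groups and 0.0286 without control library 2, the highest control.

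Col4a1 was at 1429, 1644 and 1636 TPM with UDP-glucose and 1102, 1332 and 1219.5 TPM without, again without overlap (log2 0.37, SE 0.09, limma adjusted p = 0.187). Col5a2 was at 148, 182 and 156 TPM against 105, 147 and 124 TPM (log2 0.38, SE 0.13, limma adjusted p = 0.379); its groups did not overlap either. Groups were also apart for Col5a3 (2.40 ± 0.154 against 3.16 ± 0.544 TPM, limma adjusted p = 0.655) and Col9a3 (2.02 ± 0.125 against 1.30 ± 0.360 TPM, limma adjusted p = 0.544). With Col8a1 this made 5 of the 23 chains tested, none of them called. The share of all genes with groups apart is not given here, so the lack of overlap is a description and no sign of an effect. Col1a2 was at 58.5, 68.2 and 59.8 TPM with UDP-glucose, Col3a1 at 515, 561 and 534 TPM and Col14a1 at 383, 399 and 438 TPM, each overlapping its control values. Col1a1 was at 119.5, 129 and 125 TPM, overlapping as well.

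Col4a2, the partner of Col4a1, was at 641, 740.3 and 635 TPM with UDP-glucose, overlapping its controls (log2 0.25). Of the other fibrillar chains, Col5a1 was at 88.5, 90.7 and 96.9 TPM (log2 0.071), Col27a1 at 3.27, 3.85 and 2.68 TPM and Col24a1 at 1.12, 0.322 and 0.926 TPM. The type VI chains Col6a1 (63.2, 70.1 and 67.1 TPM), Col6a2 (54.6, 57.4 and 56.0 TPM) and Col6a3 (63.03, 51.3 and 63.7 TPM) had log2 fold changes of −0.14, −0.13 and 0.21. Col16a1 was at 36.9, 36.0 and 37.7 TPM and Col18a1 at 4.77, 4.36 and 3.65 TPM. All of these overlapped their control values. The chains that were higher in control cultures than in quiescent cells stood at 5.28 ± 0.891 TPM (Col12a1), 5.82 ± 0.729 TPM (Col20a1) and 3.69 ± 0.587 TPM (Col6a5).

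By makeup, basement membrane chains took 56.97% to 58.6% of collagen TPM with UDP-glucose and 50.8% to 51.3% without, and FACIT chains 11.003% to 12.4% against 14.2% to 15.01%. Col4a1 over Col3a1 was 2.92 ± 0.144 against 2.04 ± 0.0744, and Col1a1 over Col1a2 2.01 ± 0.100 against 1.63 ± 0.0684, with no overlap in either ratio. Col3a1 over Col1a1 and, narrowly, Col5a1 over Col5a2 did not overlap either. Other ratios did overlap: Col4a1 over Col4a2 (2.34 ± 0.202 against 2.16 ± 0.0978), Col6a1 over Col6a2 (1.19 ± 0.0314 against 1.198 ± 0.0112) and Col6a3 over Col6a1 (0.893 ± 0.141 against 0.696 ± 0.0626). These are descriptions, without a test. The vascular smooth muscle markers summed to 3463 to 3746 TPM with UDP-glucose against 1944 to 1959 TPM. Acta2, a member of that list, averaged 680 ± 29.5 against 264 ± 10.1 TPM, and Myh11 averaged 10.1 ± 1.57 against 4.64 ± 1.41 TPM. The portal fibroblast markers summed to 227 to 254 TPM against 273 to 328 TPM. Whether these sums reflect other cells or the stellate cells, and their part in the values above, was not tested. Of the 52 tested genes of the collagen machinery 1 was called, Ctsk, which fell to 166 ± 3.74 TPM from 218 ± 11.5 TPM (log2 −0.39, limma adjusted p = 0.0453), a call lost after median-of-ratios rescaling (−0.34).

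Among the remaining chains that reached 1 TPM, Col15a1, a basement membrane chain of vessels, was highest in liver (1.48 ± 0.351 TPM, against 0.499 ± 0.460 in quiescent cells). Col23a1, a membrane chain, averaged 1.23 ± 0.278 TPM in quiescent cells, 0.0663 ± 0.0683 TPM in liver and 0.143 ± 0.0565 TPM in control cultures. The chains below 1 TPM in every group were the fibrillar Col2a1 and Col11a1, the type IV chains Col4a3, Col4a4, Col4a5 and Col4a6, the network chains Col6a4, Col6a6, Col8a2 and Col10a1, the FACIT chains Col9a1, Col9a2, Col19a1 and Col22a1, and Col17a1 and Col28a1. Of these, Col10a1 was listed at 0 in all 13 libraries. In the single-cell library 33 of the 44 chains had a UMI in a kept cell.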

How the data were processed

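Deposited bulk values are TPM per gene. The submitters' processing notes name kallisto 0.44.0, bcl2fastq 2.19, Cell Ranger (no version) and the builds GRCm38 and mm10 for the authors' files. Strand use was not given in the sources used here. Each table lists 35197 rows, of which 26 with dates in place of symbols (at most 0.319% of TPM) were left out. TPM keep no depth, so no count model was fitted. Bulk tests used limma 3.58.1 in R 4.3.3 with a variance trend, two-sided, with Benjamini-Hochberg adjustment over all genes tested, each comparison on its own libraries. The script was tested on simulated data. Fold changes on log2(TPM + 1) understate changes of low genes.

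Deposited single-cell values are the authors' UMI counts per gene and barcode (968 to 47577 per barcode, per the deposited matrix). With scanpy 1.11.5 in Python 3.11.15, barcodes with at least 500 UMIs, 200 genes and at most 20% mitochondrial UMIs were kept. A doublet caller marked 4 barcodes (0.0790%), too few to have worked, so doublets remain. Leiden clustering (resolution 1, 2000 variable genes, 30 components, 15 neighbours) left collagens out. Of 22 clusters 18 were named, from at least 3 markers among the 50 leading genes, and "-like" marks rebuilt names; 1153 cells stayed unnamed.

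Values of every library are given for chains of at least 10 TPM in a group, group means for those of at least 1 TPM, and up to 4 called genes with the highest mean were eligible per pathway list and comparison. Members, lists and markers were chosen with earlier results of these data known. Alternatives were other scalings, pseudocounts, filters and fits, and leaving out each library.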

Additional observations from a re-analysis of the deposited data

Results flagged for a closer look

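Of the 22 chains tested in quiescent cells for a library far from the other 3, 1 had such a library. Col23a1 was at 1.65 TPM in quiescent library 3, with 1.08, 1.11, 1.65 and 1.08 TPM over the 4 libraries, a gap of 0.958 of their whole range. By chance about 1 group in 20 is marked this way.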

How the results depend on the processing

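Bulk depth is not known, which limits chains near 1 TPM most, and the single-cell library has no replicate. Against liver, 3 chains were lower after median-of-ratios rescaling and after quantile normalisation, and 2 with no minimum fold. Of the 12643 genes tested, 3465, 2943 and 1832 were lower under these settings in turn. In culture against quiescent cells, higher chains numbered 0 with the filter at 5 TPM, where those 3 chains were not tested, 6 with no minimum fold, and 3 to 5 with each library left out in turn. With no minimum fold, 5823 of all 12537 genes tested were higher. With UDP-glucose, 1 chain (Col8a1) was higher after median-of-ratios rescaling, after quantile normalisation and in the fit over all groups, and 0 to 1 with each library left out. Under the first 3 of these settings 66, 71 and 20 of the 12161 genes tested were higher. Apart from that filter, the causes were not tested.

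Some signs turned. Against liver, Col26a1 went to −0.32 and −0.51 and Col27a1 to −1.62 and −1.34 after median-of-ratios rescaling and quantile normalisation. In culture against quiescent cells, median-of-ratios rescaling gave Col18a1 −0.074, Col4a2 −0.23 and Col8a1 −0.11; with each library left out the ranges were Col18a1 −0.048 to 0.29, Col4a2 −0.049 to 0.15 and Col8a1 −0.075 to 0.25. With UDP-glucose, quantile normalisation gave Col27a1 0.023 and Col6a5 0.054, and median-of-ratios rescaling gave Col6a5 0.0057. With each library left out the ranges were Col16a1 −0.067 to 0.17, Col26a1 −0.023 to 0.25, Col27a1 −0.25 to 0.080, Col6a5 −0.22 to 0.17 and Col7a1 −0.51 to 0.031. Of the values whose sign turned, only those of Col27a1 against liver were called.

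Without mitochondrial and Mup genes collagens held 0.0331% of TPM in liver, since the total was smaller. Thinned to 1000 UMIs per cell, Col14a1 was at 1415 CPM in stellate-like cells and Col18a1 at 179.7 CPM in hepatocyte-like cells. With collagens kept in the clustering Col4a1 was at 345 CPM in sinusoidal endothelial-like cells. No paired analysis was possible because the groups compared share no replicate numbers in the labels.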
